A study of Homo sapiens with 9 samples.

Results

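NRF2, the transcription factor encoded by NFE2L2, its inhibitor KEAP1 and 7 antioxidant genes that NRF2 is known to regulate (GCLC, GCLM, TXN, TXNRD1, SRXN1, NQO1 and HMOX1) were examined in FaDu cells treated with inhibitors of CDK7. The 9 genes were picked by gene name from a count table of 58929 genes, and all 9 passed the filter on low counts that left 16065 genes for testing. FaDu is a single established human line of hypopharyngeal squamous carcinoma, of wild-type genotype per the labels. Cells received the vehicle DMSO or 250 nM of either samuraciclib or YKL-5-124, in 3 biological replicates per group. The treatment lasted 48 h per the treatment protocol and 72 h per the series design. Samuraciclib is an ATP-competitive and YKL-5-124 a covalent CDK7 inhibitor, CDK7 being a kinase that activates cell cycle kinases and serves in transcription initiation.

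In unstressed cells KEAP1 holds NRF2 and hands it to the ubiquitin ligase CUL3 for degradation. Oxidants and electrophiles modify KEAP1, NRF2 then accumulates, pairs with small MAF proteins and binds antioxidant response elements near its target genes. NRF2 is controlled largely at the level of the protein, so its mRNA is not a measure of its activity. Its targets supply glutathione, recycle thioredoxin, reduce quinones and break down heme, and many squamous carcinomas keep the pathway active.

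Libraries held 18096180 to 28018126 counts. All 10 squamous epithelial markers examined passed the filter, with a summed level of 7422 to 8856 CPM (counts scaled to a common library total) over all libraries, whereas all 4 leukocyte markers stayed below it (summed level 0.0377 to 0.468 CPM). Of 8 fibroblast markers (summed level 3.80 to 6.12 CPM) COL1A1 alone passed, at 3.73 to 5.96 CPM, and LUM was at 0. The sum of the 3 endothelial markers lay between 30.0 and 32.1 CPM in DMSO, between 20.0 and 23.8 CPM with samuraciclib, and between 25.5 and 28.4 CPM in YKL-5-124 libraries, nearly all of it CDH5, with PECAM1 at 0.206 CPM or less, and their part in the results was not tested. In 3 libraries (DMSO 3, samuraciclib 2 and YKL-5-124 2) the 7SL RNA gene RN7SL2 lay at 24.9 to 59.3 CPM, against 696 to 981 CPM in the others. The part of these 3 libraries in the results below was examined by leaving them out. Bulk values cannot tell a change in every cell from a change in the share of cells that express a gene.

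Of the 9 genes, 2 rose with YKL-5-124 and the same 2, GCLC and TXNRD1, rose with samuraciclib. Both comparisons use the same 3 DMSO libraries. A gene was called where edgeR's quasi-likelihood test gave an adjusted p under 0.05 together with a log2 fold change above 0.5 in size. Over all genes tested 21.8% were called with YKL-5-124 and 17.7% with samuraciclib, and 11.9% and 8.17% were called higher, so 2 of 9 is a share near the background. No member was called lower, against a background of 9.93% and 9.55%. The members were not alike, since their log2 fold changes ran from -0.43 to 0.68 with YKL-5-124 and from -0.27 to 0.64 with samuraciclib. Their medians were 0.37 and 0.082, beside medians of 0.014 and 0.0012 over all genes tested.

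**Figure D1:**
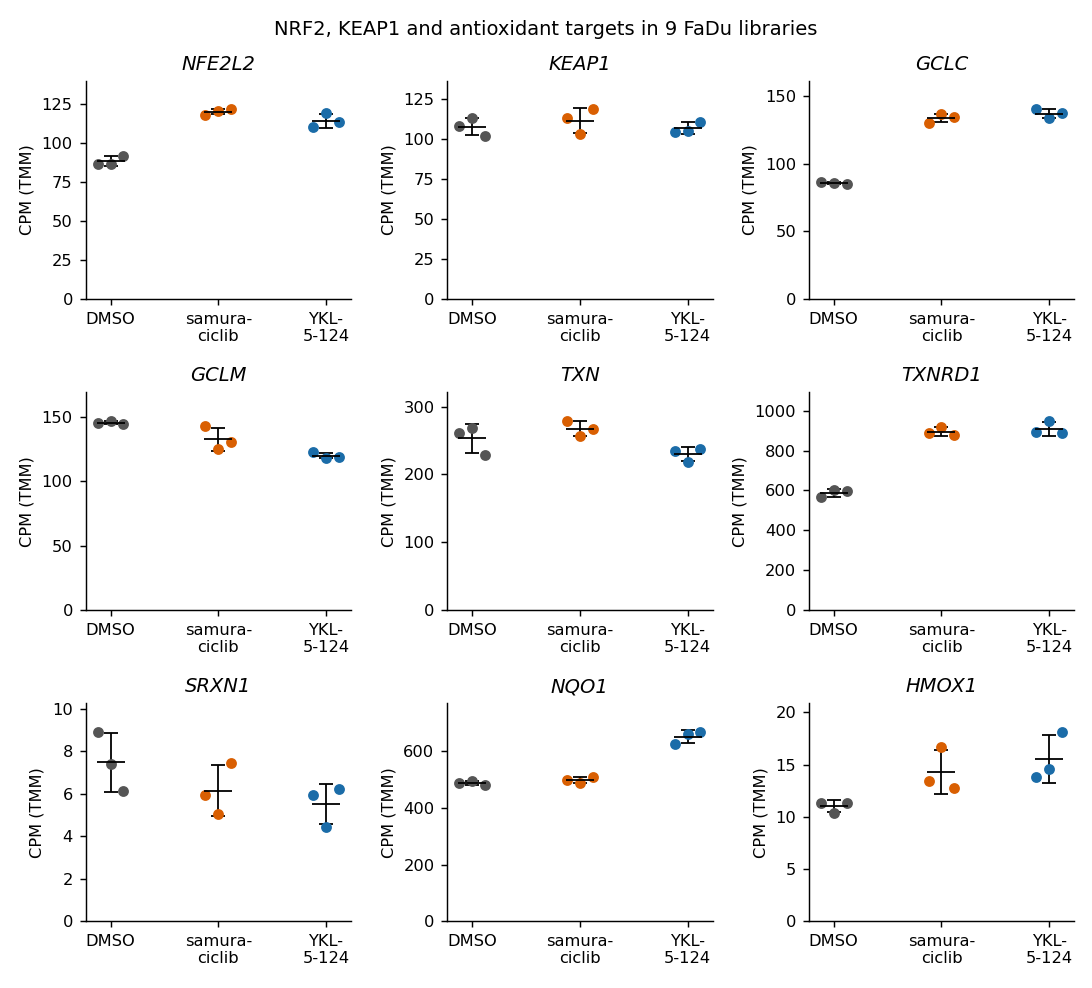
Level of each gene in CPM (y axis, from 0) in the 3 libraries of each group (points), with the mean and SD (bars). GCLC and TXNRD1 stand above DMSO with both inhibitors, NQO1 stands above it with YKL-5-124 (623 to 668 against 478 to 495 CPM), and KEAP1 overlaps in all groups.

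Levels of different genes were compared on a per-length scale (TPM), that is, counts divided by the deposited gene length and scaled to the same total in every library. In DMSO, TXN stood highest at 766 ± 76.6 TPM (SD, n = 3), followed by NQO1 at 517 ± 16.5 TPM and TXNRD1 at 303 ± 9.45 TPM. KEAP1 (99.0 ± 6.45 TPM) and GCLM (92.8 ± 2.31 TPM) overlapped and did not differ beyond their spread. NFE2L2 (51.0 ± 0.986 TPM), GCLC (34.2 ± 0.817 TPM), HMOX1 (15.8 ± 0.732 TPM) and SRXN1 (9.60 ± 1.90 TPM) came last, each clear of its neighbour. This order was the same in all 3 groups. With YKL-5-124, NQO1 reached 748 ± 29.2 TPM, a level that overlapped that of TXN (756 ± 42.5 TPM).

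The DNA letters that NRF2 and its MAF partner are known to read were looked up in front of the genes, because the members differ in where such a stretch lies. The core of the antioxidant response element was searched as TGACNNNGC on both strands, in RefSeq promoter windows of build GRCh38 from 250 bases before to 50 bases after each start. Windows were matched for 8 of the 9 members, all but HMOX1. The core was found for 3 of the 8 (KEAP1, GCLM and TXNRD1), for 25 of 86 other pathway genes with a window (29.1%) and for 16.1% of all 27305 genes. None of the 8 held the AP-1 site TGACTCA, which 6.05% of all genes held. The longer element TGACTCAGC, which contains both the core and the AP-1 site, was then searched in the 5000 bases before each start, a window chosen after the shorter one had been seen. It was found for GCLC and NQO1, for 15 of the 86 other pathway genes (17.4%) and for 7.27% of all genes. Distances are from the RefSeq starts, and the deposited models of GCLC and NQO1 reach farther upstream, so that the GCLC element lies inside the deposited span of GCLC and that of NQO1 just outside its own. The GCLC element lay 3148 bases before the RefSeq start (chr6:53548239-53548267, plus strand) and that of NQO1 447 bases before it (chr16:69726997-69727025, minus strand). In GCLM the core was centred 30 bases before the start (chr1:93909446-93909474, plus strand). TXNRD1 has several starts, and cores were centred 95 bases before one (chr12:104215670-104215698, plus strand) and 98 bases before another (chr12:104286920-104286948, minus strand), besides a core 4 bases before the first that is not shown. In KEAP1, which was not called, cores were centred 50 and 27 bases before the start and are not shown. These are the elements of the 2 genes called, GCLC and TXNRD1, and of GCLM and NQO1, which were not called, with the core in capitals and 10 bases on either side.
GCLC: cgcctccccgTGACTCAGCgctttgtgcg
NQO1: gcagtcacagTGACTCAGCagaatctgag
GCLM: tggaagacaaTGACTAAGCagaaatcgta
TXNRD1 first start: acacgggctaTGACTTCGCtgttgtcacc
TXNRD1 second start: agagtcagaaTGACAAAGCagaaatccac
A match describes the letters only, and binding was not measured.

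The regulators come first. NFE2L2 (ENSG00000116044, chromosome 2, 177227595 to 177392697) read 86.4, 86.5 and 91.9 CPM in the DMSO libraries. With samuraciclib it read 118, 121 and 121 CPM, and with YKL-5-124 110.2, 119 and 113 CPM. Every treated library lay above every DMSO library. The difference was 1.36-fold with samuraciclib (log2 0.44 ± 0.048, SE, adjusted p = 6.66e-07) and 1.29-fold with YKL-5-124 (0.37 ± 0.048, adjusted p = 4.36e-06), in both cases inside the fold threshold. Without TMM scaling of the libraries, samuraciclib moved just past it (0.503). The gene AGPS, with a mean of 2907.9 counts, overlaps part of the 4.37% of the NFE2L2 span that is shared with models on the opposite strand. Since the strand setting of the counting is not stated, reads there cannot be told apart.

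KEAP1 (ENSG00000079999, chromosome 19, 10486120 to 10503741), the adaptor that targets NRF2, read 102 to 113 CPM in DMSO, 103 to 119 CPM with samuraciclib and 105 to 111 CPM with YKL-5-124. The groups overlapped throughout. Its difference from DMSO was -0.012 ± 0.056 with YKL-5-124 (95% interval -0.13 to 0.11) and 0.050 ± 0.056 with samuraciclib (-0.068 to 0.17), so the intervals stayed well inside the fold threshold.

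The members of glutathione synthesis went apart. GCLC (ENSG00000001084, chromosome 6, 53497341 to 53616970) encodes the catalytic subunit of glutamate-cysteine ligase, the enzyme of the first step. It read 86.3, 85.9 and 84.9 CPM in DMSO, 130.3, 136 and 134 CPM with samuraciclib, and 140.1, 134 and 137 CPM with YKL-5-124. The groups were far apart and the spread within each was small. GCLC rose 1.60-fold with YKL-5-124 (log2 0.68 ± 0.044, adjusted p = 6.92e-10) and 1.56-fold with samuraciclib (0.64 ± 0.044, adjusted p = 2.82e-09). Of the genes tested, 89.0% and 91.4% had a lower log2 fold change than GCLC in these comparisons. A model on the same strand, AL033397.1, covers 46.5% of the GCLC span with a mean of 0.9 counts.

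GCLM (ENSG00000023909, chromosome 1, 93885205 to 93909456), the modifier subunit of the same enzyme, did not rise with it. It read 146, 147 and 144 CPM in DMSO, 143, 125 and 130.5 CPM with samuraciclib, and 123, 118 and 119 CPM with YKL-5-124. All treated libraries lay below all DMSO libraries, by a small margin for samuraciclib 1. The difference was -0.28 ± 0.049 with YKL-5-124 (adjusted p = 0.000136) and -0.13 ± 0.049 with samuraciclib (adjusted p = 0.0356), both inside the fold threshold. Without TMM scaling they came to -0.15 and -0.074. With samuraciclib the adjusted p was above 0.05 without any 1 DMSO library, samuraciclib 2 (-0.093) or samuraciclib 3. It was 0.164 without the 3 libraries low in RN7SL2 (-0.10).

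The ratio of the subunits, GCLC to GCLM on the TPM scale, does not depend on the scaling between libraries. It was 0.372, 0.366 and 0.369 in DMSO, 0.573, 0.683 and 0.646 with samuraciclib, and 0.717, 0.7098 and 0.722 with YKL-5-124. The mean thus stood at 0.716 ± 0.0062 (SD, n = 3) with YKL-5-124 and 0.634 ± 0.056 with samuraciclib, against 0.369 ± 0.0028 in DMSO. The groups did not overlap, and the exact permutation test (two-sided) of each inhibitor against DMSO gave p = 0.1, the smallest value that 3 against 3 allows. All treated libraries lay above DMSO for GCLC and below it for GCLM. The ratio therefore had to separate the groups, and its test adds nothing to those results.

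**Figure D2:**
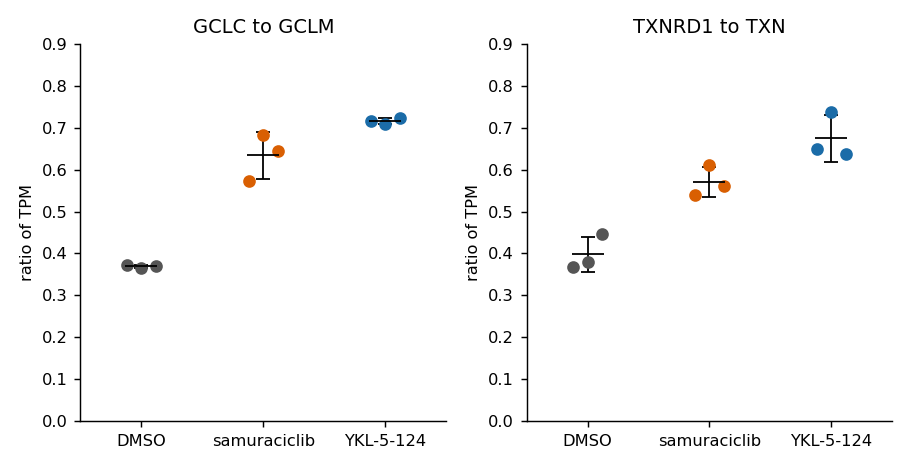
Ratio of TPM of GCLC to GCLM and of TXNRD1 to TXN (y axes, from 0) in each library (points), with the mean and SD (bars), for 3 libraries per group. In both panels all treated libraries lie above all DMSO libraries, with GCLC to GCLM at 0.366 to 0.372 in DMSO and 0.7098 to 0.722 with YKL-5-124.

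In the thioredoxin system TXNRD1 rose, while TXN passed the test against DMSO with neither inhibitor. TXNRD1 (ENSG00000198431, chromosome 12, 104215779 to 104350305) encodes cytosolic thioredoxin reductase, a selenoprotein that recycles thioredoxin with NADPH. It read 566, 601 and 599 CPM in DMSO, 886, 920.5 and 879 CPM with samuraciclib, and 892, 950.1 and 888 CPM with YKL-5-124. Treated and DMSO libraries were far apart, and the inhibitor groups overlapped each other. TXNRD1 rose 1.55-fold with YKL-5-124 (0.63 ± 0.048, adjusted p = 5.19e-09) and 1.52-fold with samuraciclib (0.60 ± 0.048, adjusted p = 1.37e-08). By the stricter glmTreat, which tests against the fold threshold itself, the adjusted p with samuraciclib was 0.0753, while the call with YKL-5-124 was kept (0.0216). The pseudogene RPL18AP3 lies inside TXNRD1 on the same strand with a mean of 734.9 counts, against 9884 to 24254 counts per library for TXNRD1.

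TXN (ENSG00000136810, chromosome 9, 110243811 to 110256640), thioredoxin itself, read 262, 269 and 229 CPM in DMSO, 279, 256 and 267 CPM with samuraciclib, and 234, 219 and 237 CPM with YKL-5-124. Both treated groups overlapped DMSO. Neither difference from DMSO passed the test (-0.14 ± 0.059, adjusted p = 0.0632 with YKL-5-124, and 0.082 ± 0.058, adjusted p = 0.272 with samuraciclib). With YKL-5-124 the adjusted p was 0.0053 without DMSO 3 (-0.21) and 0.00845 without the 3 libraries low in RN7SL2 (-0.17). Both values lay inside the fold threshold, and with any other single library left out the adjusted p stayed above 0.05. The ratio of TXNRD1 to TXN on the TPM scale was 0.398 ± 0.042 in DMSO, 0.570 ± 0.037 with samuraciclib and 0.674 ± 0.056 with YKL-5-124 (SD, n = 3). All treated libraries lay above all DMSO libraries, with an exact permutation p = 0.1 for each inhibitor, again the smallest possible.

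SRXN1 (ENSG00000271303, chromosome 20, 646615 to 653370) encodes sulfiredoxin, which repairs over-oxidized peroxiredoxins, and was the least expressed member. It read 8.93, 7.40 and 6.14 CPM in DMSO, 5.94, 5.06 and 7.45 CPM with samuraciclib, and 5.93, 4.47 and 6.23 CPM with YKL-5-124, from 111 to 163 counts per library. Both treated groups overlapped DMSO. The difference was -0.43 ± 0.17 with YKL-5-124 (adjusted p = 0.0427) and -0.27 ± 0.17 with samuraciclib (adjusted p = 0.197). With YKL-5-124 it passed the fold threshold without DMSO 3 (-0.57) or without YKL-5-124 3 (-0.52). It came to -0.29 without DMSO 1 and -0.28 without YKL-5-124 2, with an adjusted p of 0.202 and 0.201, and the adjusted p was also above 0.05 without DMSO 2, samuraciclib 1 or YKL-5-124 1. Another gene model, AL121758.1, covers 99.8% of the span on the same strand with a mean of 1.7 counts, and it is not stated whether reads common to both models were counted.

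NQO1 (ENSG00000181019, chromosome 16, 69706996 to 69726951), a quinone reductase often used as a readout of NRF2, was the member on which the inhibitors differed most. It read 487, 495 and 478 CPM in DMSO, 497, 487 and 509 CPM with samuraciclib, and 623, 658 and 668 CPM with YKL-5-124. Samuraciclib libraries overlapped DMSO, and YKL-5-124 libraries lay above all others. The difference from DMSO was 1.33-fold with YKL-5-124 (0.42 ± 0.046, adjusted p = 6.53e-07), inside the fold threshold, and 0.032 ± 0.046 with samuraciclib (95% interval -0.065 to 0.13, adjusted p = 0.604). Without TMM scaling NQO1 passed the fold threshold with YKL-5-124 (0.54).

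HMOX1 (ENSG00000100292, chromosome 22, 35380361 to 35394214), the heme oxygenase that opens the heme ring, was expressed at a low level. It read 11.3, 10.3 and 11.3 CPM in DMSO, 13.4, 16.7 and 12.7 CPM with samuraciclib, and 13.8, 14.6 and 18.1 CPM with YKL-5-124. Every treated library lay above every DMSO library, and 1 library of each treated group stood above its other two. The difference was 1.41-fold with YKL-5-124 (0.494 ± 0.12, adjusted p = 0.00226) and 1.30-fold with samuraciclib (0.38 ± 0.12, adjusted p = 0.0166). With YKL-5-124 it lay at the edge of the fold threshold and passed it without DMSO 1 (0.51), DMSO 3 (0.52), YKL-5-124 1 (0.56) or YKL-5-124 2 (0.54), without the 3 libraries low in RN7SL2 (0.56) and without TMM scaling (0.62), whereas without YKL-5-124 3 it came to 0.37. With samuraciclib it came to 0.25 without samuraciclib 2 and to 0.33 without DMSO 2, and the adjusted p was then 0.114 and 0.0687. Without the 3 libraries low in RN7SL2 it came to 0.27 with samuraciclib (adjusted p = 0.111).

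With the fold threshold set aside, 7 of the 9 members passed an adjusted p of 0.05 with YKL-5-124 (5 higher, 2 lower) and 5 with samuraciclib (4 higher, 1 lower). Over all genes tested this share was 49.3% and 44.1%. The groups did not overlap for 6 members with YKL-5-124 and 5 with samuraciclib, against 56.8% and 52.9% of all genes.

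**Figure D3:**
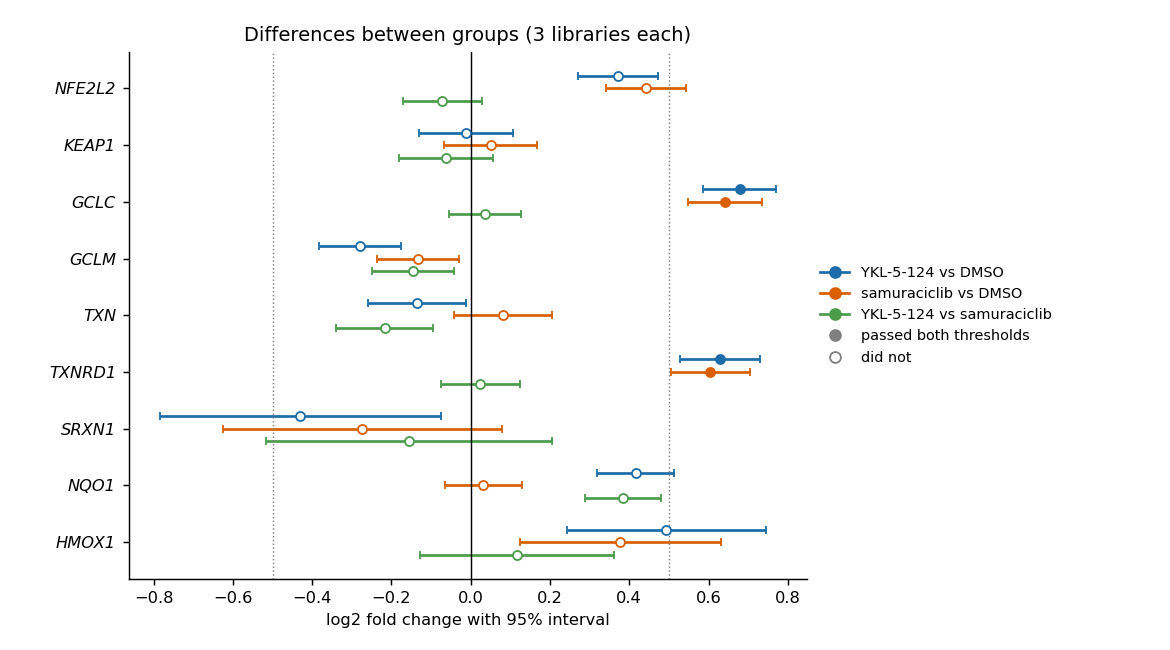
Log2 fold change of each gene (x axis) with its 95% interval in the 3 comparisons, filled where it passed both thresholds (dotted lines at -0.5 and 0.5), from 3 libraries per group. GCLC and TXNRD1 are the filled points, and NQO1 separates YKL-5-124 from samuraciclib with an interval of 0.29 to 0.48.

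The inhibitors were compared directly at the same dose and time, in 9 tests, 1 per member, adjusted over all genes. No member was called by edgeR, against 6.92% of all genes (4.46% higher, 2.46% lower), nor by DESeq2, and 3 members had an unadjusted p below 0.05. The same 3 passed an adjusted p of 0.05 inside the fold threshold, against 24.9% of all genes. NQO1 was 1.31-fold higher with YKL-5-124 than with samuraciclib (0.38 ± 0.046, adjusted p = 1.33e-05), with no overlap. TXN was lower with YKL-5-124 (-0.22 ± 0.059, adjusted p = 0.0112), as was GCLM (-0.15 ± 0.050, adjusted p = 0.0386), and the libraries of both genes did not overlap. Without samuraciclib 1 the adjusted p was 0.0634 for TXN (-0.19) and 0.23 for GCLM (-0.092), and for GCLM it was also above 0.05 without any 1 YKL-5-124 library. Groups without overlap were found for these 3 members and for 38.7% of all genes.

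For the other members no difference between the inhibitors was detected, and the intervals bound its size. The 95% interval of YKL-5-124 against samuraciclib was -0.055 to 0.13 for GCLC, -0.076 to 0.12 for TXNRD1, -0.17 to 0.027 for NFE2L2 and -0.18 to 0.056 for KEAP1. For the genes with fewer counts it was wide, -0.13 to 0.36 for HMOX1 and -0.52 to 0.21 for SRXN1. The value of HMOX1 ranged from -0.0095 to 0.24 when single libraries were left out.

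Genes whose pattern was most like that of the 2 called members were sought among protein-coding genes that averaged 10 CPM or more, by the root mean square difference of log2 CPM over the 9 libraries, each gene set to its DMSO mean. Nearest to GCLC were AKAP8L (0.041) and ACTN1 (0.047), against a median of 0.57 over 8916 genes. Nearest to TXNRD1 were NAPEPLD (0.041) and BTN2A1 (0.043), against a median of 0.54. None of the 4 belongs to the pathway lists below.

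The wider pathway was followed in 7 lists with 104 further genes, of which 96 were tested. With YKL-5-124 16 rose and 5 fell, and with samuraciclib 11 rose and 7 fell. That is 21.9% and 18.8% of those tested, beside 21.8% and 17.7% of all genes. The medians were 0.046 and 0.020.

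**Figure D4:**
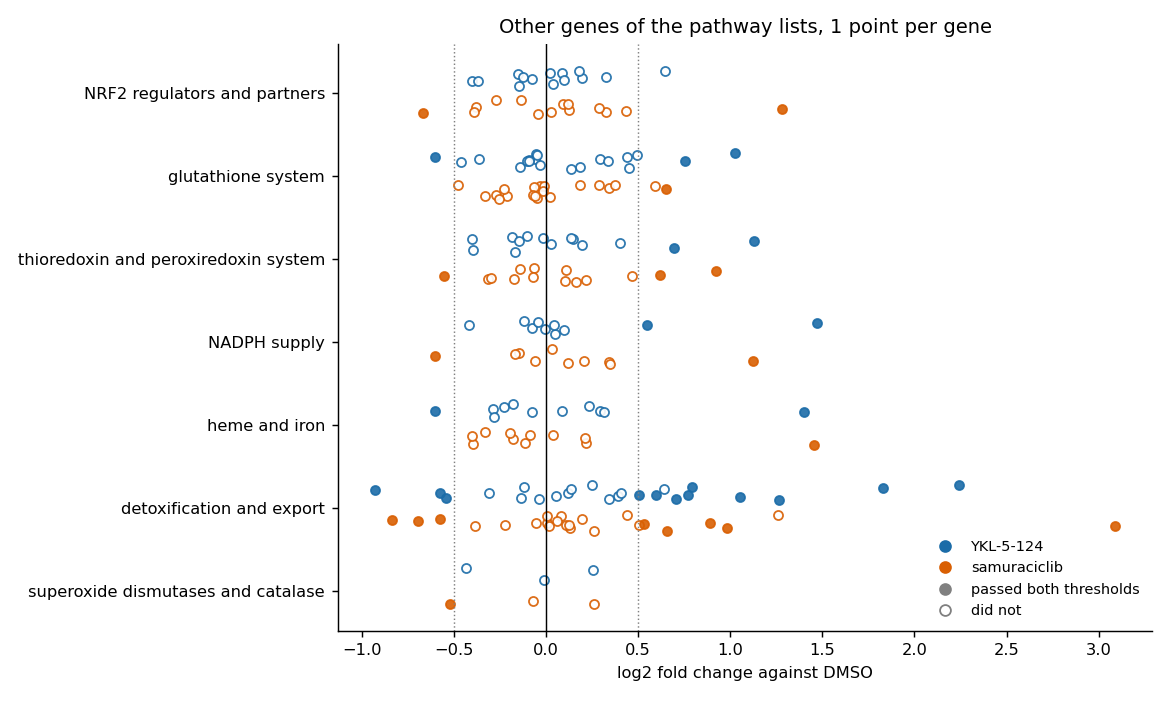
Log2 fold change against DMSO (x axis) of the 96 further pathway genes in 7 lists (rows), 1 point per gene and inhibitor, filled where both thresholds were passed. The list of detoxification and export, the largest with 24 genes tested, holds the most filled points. They are 9 higher and 3 lower with YKL-5-124 and 5 higher and 3 lower with samuraciclib. Over all genes tested 21.8% and 17.7% were called.

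Among 14 regulators and partners of NRF2, none was called with YKL-5-124 and 14.3% with samuraciclib, beside 21.8% and 17.7% of all genes. DPP3, a peptidase that binds KEAP1, fell with samuraciclib (-0.67 ± 0.045, adjusted p = 2.24e-09). With YKL-5-124 DPP3 stood at -0.399 ± 0.045 (adjusted p = 7.50e-07), inside the fold threshold. BACH2 was the 1 regulator called higher with samuraciclib (1.28 ± 0.50, adjusted p = 0.0439), from 4 to 18 counts per library in DMSO and samuraciclib. The call was lost on leaving out any DMSO or samuraciclib library or YKL-5-124 1 (1.13 to 1.39). It was also lost without the 3 libraries low in RN7SL2 (1.31, adjusted p = 0.113). BACH1, a repressor of HMOX1, stood at 14.2 ± 0.280 CPM in DMSO, 19.2 ± 0.345 with samuraciclib and 16.2 ± 1.34 with YKL-5-124 (SD, n = 3). Its differences from DMSO were 0.44 ± 0.086 (adjusted p = 0.000407) and 0.195 ± 0.086 (adjusted p = 0.0697). SQSTM1, an autophagy adaptor that binds KEAP1, was 283 ± 8.79 CPM with samuraciclib against 370.3 ± 8.33 CPM in DMSO (-0.39 ± 0.051, adjusted p = 6.67e-06), inside the fold threshold. With YKL-5-124 it stood at 376 ± 23.5 CPM, a direct difference between the inhibitors of 0.41 ± 0.051 (adjusted p = 2.04e-05).

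Of 20 genes of the glutathione system tested, 15% were called with YKL-5-124 and 5% with samuraciclib, beside 21.8% and 17.7% of all genes. There were 2 higher and 1 lower with YKL-5-124 and 1 higher with samuraciclib. The latter was SLC7A11, the cystine transporter, at 82.5 ± 1.97 CPM in DMSO, 129.9 ± 4.61 with samuraciclib and 112 ± 7.88 with YKL-5-124 (SD, n = 3). It rose 1.57-fold with samuraciclib (0.65 ± 0.054, adjusted p = 2.37e-08) and was 1.36-fold higher with YKL-5-124, inside the threshold (0.44 ± 0.054, adjusted p = 2.24e-06, and 0.57 without TMM scaling). Its level was lower with YKL-5-124 than with samuraciclib (-0.21 ± 0.053, adjusted p = 0.00714). GPX2, a glutathione peroxidase of epithelia, fell with YKL-5-124 (-0.601 ± 0.089, adjusted p = 2.12e-05, but -0.47 without TMM scaling), and lay lower than with samuraciclib (-0.59 ± 0.089, adjusted p = 0.000133). GLRX (0.75 ± 0.25, adjusted p = 0.0191) and GGT1 (1.02 ± 0.40, adjusted p = 0.0416) were called with YKL-5-124 from 22 to 57 and 7 to 34 counts per library in DMSO and YKL-5-124, and for both the groups overlapped. GLRX was lost without DMSO 1 or 3 or YKL-5-124 1 or 3 (lowest value 0.51), while GLRX came to 1.146 without DMSO 2. GGT1 was lost without DMSO 2 or 3 or YKL-5-124 1 or 2 (lowest value 0.74). Both were also lost without the 3 libraries low in RN7SL2 (0.62 and 0.66).

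Of 14 genes of the thioredoxin and peroxiredoxin system, SESN3, a sestrin, rose with YKL-5-124 (1.13 ± 0.11) and with samuraciclib (0.92 ± 0.11). TXNRD3, another thioredoxin reductase, rose with both as well (0.697 ± 0.12 and 0.62 ± 0.12), though with samuraciclib it stayed inside the threshold without samuraciclib 2 (0.48) and without the 3 libraries low in RN7SL2 (0.43). TXNIP, which binds and inhibits thioredoxin, fell with samuraciclib (-0.55 ± 0.058, adjusted p = 4.48e-07, but -0.49 without TMM scaling) and stood at -0.401 ± 0.058 with YKL-5-124. None of the 6 peroxiredoxin genes, whose products reduce peroxides, was called in either comparison, beside 21.8% and 17.7% of all genes. This does not mean that none differed. With YKL-5-124, PRDX3 (296 to 318 against 379 to 420 CPM) and PRDX2 lay below all DMSO libraries, and PRDX1 and PRDX6 above them. In that comparison the groups did not overlap for 56.8% of all genes.

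NADPH, which thioredoxin reductase and NQO1 consume, is supplied by the enzymes of another list of 10. IDH2, the mitochondrial NADP-dependent isocitrate dehydrogenase, rose from 15.1 ± 0.488 CPM in DMSO to 41.9 ± 1.36 with YKL-5-124 and 33.0 ± 1.10 with samuraciclib (SD, n = 3). That is 2.77-fold (1.47 ± 0.068, adjusted p = 9.73e-12) and 2.18-fold (1.12 ± 0.069, adjusted p = 6.87e-10). ALDH1L1, from 32 to 79 counts per library, was called lower with samuraciclib than in DMSO (-0.602 ± 0.20) and than with YKL-5-124. The call against DMSO was lost without DMSO 1 (-0.51), samuraciclib 1 (-0.599) or samuraciclib 3 (-0.47).

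In the heme and iron list (11 tested), ABCB6, a porphyrin transporter, rose with YKL-5-124 (1.40 ± 0.18) and samuraciclib (1.46 ± 0.18), from 30 to 43 counts in DMSO to 68 to 134 with the inhibitors. IREB2, an iron-responsive RNA-binding protein, fell with YKL-5-124 (-0.604 ± 0.063, adjusted p = 3.32e-07), but came to -0.48, inside the threshold, without TMM scaling. With samuraciclib it stood at -0.402 ± 0.063 (adjusted p = 4.50e-05). Of 3 superoxide dismutase and catalase genes tested, catalase, CAT, was called lower with samuraciclib (-0.52 ± 0.10, adjusted p = 0.000374). With YKL-5-124 it stood at -0.44 ± 0.10 (adjusted p = 0.00147), inside the fold threshold, and was called without DMSO 1 (-0.53). The samuraciclib call was lost without DMSO 2 (-0.46), DMSO 3 (-0.49), samuraciclib 1 (-0.498) or samuraciclib 2 (-0.49), and without TMM scaling (-0.46). That call was also lost without the 3 libraries low in RN7SL2 (-0.45).

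Of 24 genes of detoxification and export, 9 rose and 3 fell with YKL-5-124 and 5 rose and 3 fell with samuraciclib. That is 12 and 8 of the 24, beside backgrounds of 21.8% and 17.7%, and no test of the list was made. Some of these calls rest on few counts. UGT1A6, called higher with both, had 0 to 3 counts per library in DMSO, 6 to 12 with YKL-5-124 and 11 to 19 with samuraciclib. AKR1B10, called higher with YKL-5-124, had 0 to 9 in DMSO and 13 to 18 with YKL-5-124. CBR3 was called higher with YKL-5-124 (0.51, adjusted p = 0.041) with overlapping groups. It lost that call without DMSO 2 or 3 or YKL-5-124 2 or 3. The exporter gene ABCC3 rose with YKL-5-124 (1.27 ± 0.091, adjusted p = 2.70e-09) and with samuraciclib (0.89 ± 0.093, adjusted p = 4.43e-07). ABCC1, the exporter of glutathione conjugates, went the other way, at 134 ± 3.93 CPM in DMSO, 70.2 ± 0.940 with YKL-5-124 and 82.6 ± 3.69 with samuraciclib (SD, n = 3). It fell with both (-0.93 ± 0.049, adjusted p = 4.89e-11, and -0.696 ± 0.048, adjusted p = 2.97e-09). TRIM16 rose with both (1.05 ± 0.057 and 0.98 ± 0.057), as did UGDH, which makes UDP-glucuronate (0.77 ± 0.063 and 0.66 ± 0.063). TRIM16 resembles its paralog TRIM16L in sequence, and how reads common to both were counted is not stated.

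EPHX1, microsomal epoxide hydrolase, separated the inhibitors in the way NQO1 did. It stood at 54.7 ± 2.24 CPM in DMSO, 55.0 ± 0.541 with samuraciclib and 94.97 ± 9.40 with YKL-5-124 (SD, n = 3). The direct difference was 1.73-fold (0.79 ± 0.064, adjusted p = 1.71e-07), with all YKL-5-124 libraries above all others. Direct comparison called 5 of the 96 genes, 4 of them higher with YKL-5-124 and 1 lower, or 5.21% against 6.92% of all genes. The others were CBR3 (0.56 ± 0.20), GPX3 (0.504 ± 0.11) and ALDH1L1 (0.65 ± 0.20), called higher, and GPX2. CBR3 lost its call on leaving out any library but YKL-5-124 1 (0.47 to 0.58), GPX3 without samuraciclib 3 (0.42), YKL-5-124 1 (0.47) or YKL-5-124 3 (0.48), and ALDH1L1 without samuraciclib 1 (0.65) or 3 (0.51) or YKL-5-124 1 (0.63) or 3 (0.52). CBR3 also lost it without the 3 libraries low in RN7SL2 (0.43).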

How the data were processed

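Poly(A)-selected RNA of 9 FaDu cultures was sequenced in read pairs by the study. The deposited table holds whole-number counts per gene, which the authors made with HISAT2 (GRCh38) and featureCounts 2.0.6 on a GENCODE annotation, without normalization. The annotation release and strand setting are not stated. The table also gives gene length, the other column used.

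Genes were filtered with filterByExpr and counts scaled by TMM in edgeR 4.0.16 (R 4.3.3, limma 3.58.1). CPM rest on these scaled library sizes. One fit of all 9 libraries, without covariates, gave 3 comparisons by the quasi-likelihood F-test, two-sided, with Benjamini-Hochberg adjustment over all genes tested. The SE is the log2 fold change divided by the square root of F. The fit was tested on simulated data. Replicates are biological per the study. The members and lists were chosen with earlier results of these data known. All members were described, and of each list up to 3 called genes with the smallest adjusted p per comparison, with SLC7A11, SQSTM1 and BACH1. The peroxiredoxin genes were described as a set besides, and UGT1A6 and AKR1B10 for their few counts. One further gene that this rule names is not reported here. SOD2 names 2 gene models, and the one with 0 to 5 counts per library was left out. DESeq2 1.42.0, other scalings, filters and thresholds, a replicate block and leaving out libraries were alternatives. Intervals are at 95%. Promoter windows (35116) were identical to the genome sequence used. Figures were drawn with matplotlib 3.10.9.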

Additional observations from a re-analysis of the deposited data

How the results depend on the processing

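GCLC kept its call in both comparisons with DMSO under all 19 alternatives (0.66 to 0.81 with YKL-5-124, 0.62 to 0.70 with samuraciclib), and TXNRD1 under all but glmTreat with samuraciclib. Members called with YKL-5-124 numbered 2, but 4 without TMM scaling (library size alone), 7 with no fold threshold and 2 to 4 with single libraries left out, the 4 being reached without DMSO 3. HMOX1 was also called with YKL-5-124 under a filter of a mean count of at least 50 (0.53) and with only the groups compared (0.504). The same held without the 3 libraries low in RN7SL2 (0.56). With samuraciclib they numbered 2, but 3 without TMM scaling, 1 by glmTreat and 5 with no fold threshold (2 with each library left out), and between the inhibitors 0, but 3 with no fold threshold (0 with each library left out). Of the 96 other pathway genes, 21 called with YKL-5-124 became 9 by glmTreat and 53 with no fold threshold (18 to 21 with libraries left out), and 18 called with samuraciclib became 11 and 50 (15 to 18). The 5 called between the inhibitors became 3 without a low-count filter, 3 by DESeq2, 1 by glmTreat, 30 with no fold threshold and 2 to 6 with libraries left out, the 2 being reached without samuraciclib 3, and 3 without samuraciclib 1, YKL-5-124 1 or YKL-5-124 3. Where a threshold or filter was changed, the alternative itself sets the count, and for the rest the cause was not tested. Of all 16065 genes tested, 49.3% passed with YKL-5-124, 44.1% with samuraciclib and 24.9% between the inhibitors when no fold threshold was set. By glmTreat the background was 696 genes up and 762 down for YKL-5-124, and 411 up and 571 down for samuraciclib. Between the inhibitors glmTreat left 38 up and 33 down. Without TMM scaling the background was 2802 up and 1052 down for YKL-5-124, and 1622 up and 1219 down for samuraciclib. The replicate number as a block left 2, 2 and 0 members called. Of the other genes named it took the calls of GGT1 and CBR3 with YKL-5-124 (adjusted p = 0.060 and 0.053), BACH2 with samuraciclib (0.054) and CBR3 between the inhibitors (0.061). DESeq2, which the study used, took the same calls (adjusted p = 0.063 to 0.10). It also took that of GPX3 between the inhibitors, whose log2 fold change came to 0.498. Same-numbered libraries deviated together with a correlation over 0.1 in 2 of 9 pairs (-0.088 to 0.23). Differently numbered libraries of different groups did so in 2 of 18 pairs (-0.16 to 0.19). Whether the numbers pair the samples cannot be told from so few weak values. The 3 libraries low in RN7SL2 deviated together across the groups (0.18 to 0.23). Library size alone moved the median of all genes with YKL-5-124 to 0.14 and the share of higher calls from 54.5% to 72.7%, and with samuraciclib to 0.060 and from 46.1% to 57.1%. It changed the sign of KEAP1 with YKL-5-124 (0.12), which was not called. Ordered by CPM instead of TPM, TXNRD1 came first in DMSO and TXN the third. SRXN1 and HMOX1, with 111 to 373 counts per library, have the widest intervals.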
